A study of Mus musculus with 8 samples.

Results

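The genes described here are the glucose transporter Slc2a1 and 9 genes of the glycolytic chain, Hk1, Hk2, Pfkp, Aldoa, Gapdh, Pgk1, Eno1, Pkm and Ldha, taken by symbol from the deposited expression table. Aldoa is listed under 2 gene identifiers, so the 10 symbols gave 11 of the 18990 rows of the table, and all 11 passed the filter of a mean of 1 CPM (reads scaled to the normalised library size) over the libraries. RNA-sequencing (RNA-seq) of ribosome-depleted total RNA had been done on 8 libraries of mouse embryonic fibroblasts (MEFs) early in reprogramming to induced pluripotent stem cells, in 4 groups of 2 biological replicates. The groups are siNcor1 and siOct4, each at reprogramming day 3 and at day 6. All cells were wild-type BL6 MEFs that carried a lentiviral tet-STEMCCA cassette (the transgenes Oct4, Sox2, Klf4 and c-Myc, together OSKM) and an rtTA lentivirus, received a pool of siRNAs against Ncor1 or Oct4, and were then induced with doxycycline in medium with serum, a GSK3 inhibitor (chiron), a TGF-beta receptor inhibitor (Alk5i), ascorbic acid and LIF. Ncor1 encodes a nuclear receptor corepressor and Oct4 (gene symbol Pou5f1) is a pluripotency transcription factor. Each group therefore holds the cassette, which also supplies Oct4 and c-Myc transcripts, and cells given a non-targeting siRNA were not analysed here, so each comparison sets the knockdowns against each other or day 6 against day 3.

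Glycolysis splits glucose into pyruvate in the cytosol and yields ATP without oxygen. SLC2A1 (GLUT1) brings glucose into the cell, hexokinases trap it as glucose 6-phosphate, phosphofructokinase commits it to the pathway, aldolase splits the sugar, and the lower enzymes from GAPDH to pyruvate kinase harvest ATP and NADH before lactate dehydrogenase turns pyruvate into lactate. Pluripotent cells are known for a high glycolytic flux, fibroblasts depend more on respiration, and the HIF and MYC transcription factors are known activators of many of these genes.

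All 10 symbols had promoter entries in the RefSeq table (GRCm38.p6). The 250 bases before the start were searched on both strands for ACGTG and GCGTG, the core letters of hypoxia response elements, and for CACGTG, the E-box read by MYC, which itself contains ACGTG. In the window of the start with the most transcripts, 5 of the 10 genes held ACGTG, 4 held GCGTG and 8 held either. For Eno1 the windows tied, and the first along the chromosome was used. Of all 32851 promoter windows, 16.6% held ACGTG, 28.2% held GCGTG and 38.6% held either. These include other starts of a gene and were not matched for base content. Hk1 and Pkm had neither in the window used, though another window of Hk1 held GCGTG and another of Pkm held ACGTG. Ldha was alone among the 10 in holding CACGTG, which 6.02% of all windows held. The windows of the transporter and of the 3 enzyme genes with the largest excess in siOct4 over siNcor1 at day 6 are shown because those genes lead the results below. Each reads 5′ to 3′ towards the start, and capitals mark the matches on either strand.
Slc2a1, chr4:119108495-119108744, plus strand: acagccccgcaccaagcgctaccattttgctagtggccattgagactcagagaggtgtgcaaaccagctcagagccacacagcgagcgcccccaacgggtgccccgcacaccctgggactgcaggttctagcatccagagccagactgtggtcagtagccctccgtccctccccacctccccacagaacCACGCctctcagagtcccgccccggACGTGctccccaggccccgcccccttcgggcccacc
Pfkp, chr13:6648772-6649021, minus strand: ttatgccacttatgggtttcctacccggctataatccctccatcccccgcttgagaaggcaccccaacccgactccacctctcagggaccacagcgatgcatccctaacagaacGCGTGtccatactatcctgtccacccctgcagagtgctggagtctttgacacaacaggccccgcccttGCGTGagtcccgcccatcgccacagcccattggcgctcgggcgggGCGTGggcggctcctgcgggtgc
Pgk1, chrX:106186850-106187099, plus strand: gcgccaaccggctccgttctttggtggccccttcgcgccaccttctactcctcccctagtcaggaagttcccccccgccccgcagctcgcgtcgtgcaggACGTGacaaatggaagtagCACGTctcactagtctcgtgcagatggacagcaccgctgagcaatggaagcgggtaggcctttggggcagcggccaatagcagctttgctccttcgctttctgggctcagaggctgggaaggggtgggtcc
Ldha, chr7:46845554-46845803, plus strand: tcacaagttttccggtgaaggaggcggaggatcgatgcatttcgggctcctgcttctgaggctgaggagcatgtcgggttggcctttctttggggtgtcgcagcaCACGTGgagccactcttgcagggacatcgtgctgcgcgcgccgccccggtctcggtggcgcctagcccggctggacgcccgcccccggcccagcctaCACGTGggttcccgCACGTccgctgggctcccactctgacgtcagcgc
The Ldha window held CACGTG at 145 and at 48 bases before the start and a further ACGTG at 34 bases. Pgk1 held ACGTG at 150 and 131 bases, Pfkp held GCGTG at 136, 68 and 23 bases, and Slc2a1 held GCGTG at 61 and ACGTG at 36 bases before the start. These are matches of letters, and binding was not measured.

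The libraries held 7735742 to 16445192 reads on genes, and 3 reads, taken as the detection floor, corresponded to 0.174 to 0.380 CPM. The glycolytic genes lay far above that, with 402 or more reads in every library, apart from the second Aldoa row with 2 to 31 reads. A single non-coding gene, Gm26917, took 15.5% to 16.6% of the reads at day 3 and 20.3% to 29.1% at day 6. Ncor1 was 0.74 higher on the log2 scale in siOct4 than in siNcor1 at day 3 (adjusted p = 0.0139, lost at 0.0617 to 0.132 when any day 3 library was left out) and differed by -0.04 at day 6 (adjusted p = 0.815). Pou5f1, whose reads include the cassette, was no lower in libraries labelled siOct4: the difference was -0.08 at day 3 (adjusted p = 0.941) and 1.78 at day 6 (adjusted p = 1.1e-04). The labels are kept below for the cells that received each siRNA.

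Cell-type markers moved between the same groups. As a measure for the counts below, 18.6% of all genes tested were called lower in siOct4 at day 6 and 12.1% higher (limma, adjusted p under 0.05). The summed level of 10 fibroblast markers ran from 9050 to 9095 CPM in siNcor1 and from 11964 to 14395 CPM in siOct4 at day 3. At day 6 it ran from 5908 to 6487 CPM and from 3383 to 3458 CPM. At day 3 none of the 10 was called (1.07% of all genes were), and at day 6, 7 were lower in siOct4 and none was higher. Abundant genes such as Col1a1 (mean 3715 CPM in siNcor1 at day 3 and 1676 CPM at day 6) weigh most in this sum. Between days in siNcor1, 5 of the 10 were called higher and 3 lower (13.8% and 20.9% of all genes). In siOct4, 2 were called higher and 6 lower (22.2% and 30.5% of all genes). The summed 8 epithelial markers stood at 701 to 737 CPM in siNcor1 and 308 to 342 CPM in siOct4 at day 6 (90.2 to 92.1 CPM and 37.1 to 45.3 CPM at day 3), with 5 of 8 lower. The 9 pluripotency markers, of which Zfp42 was at 3 reads or fewer in every library, summed to 110 to 118 CPM and 47.7 to 53.3 CPM at day 6, with 4 of 8 tested lower. Keratinocyte markers (54.6 to 59.1 CPM in siNcor1 and 22.2 to 27.3 CPM in siOct4 at day 6; 2 of 2 tested lower; Krt15 at 3 reads or fewer in every library) and trophoblast markers (47.5 to 48.0 CPM and 9.72 to 13.2 CPM; 3 of 3 tested lower) were low. Neural markers stood at 96.6 to 108 CPM and 180 to 218 CPM, with 3 of 4 higher in siOct4. Macrophage markers stayed at or under 12.8 CPM, endothelial markers at or under 2.28 CPM with none of 4 above the filter and Emcn at 3 reads or fewer in every library, and muscle markers at or under 88.4 CPM, with no call at day 6. The part of any of these markers in the results below was not tested, and in bulk RNA a change in the share of a cell type cannot be told apart from a change in RNA per cell.

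**Figure D1:**
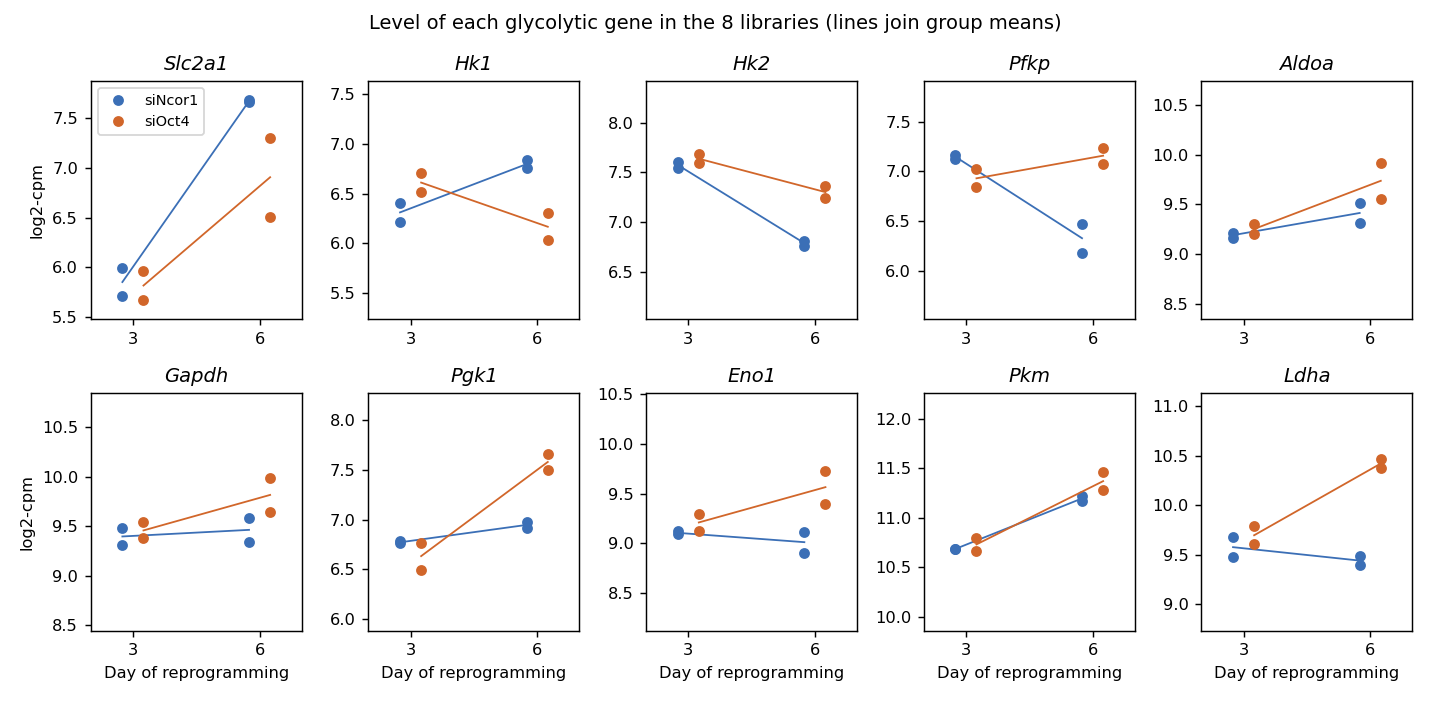
Level of the 10 glycolytic genes in log2-cpm (y axis, the same span of 2.4 units in every panel) at reprogramming day 3 and day 6 (x axis); each point is a library, blue for siNcor1 and orange for siOct4, and lines join the means of 2 replicates. At day 3 no panel holds a called difference between the colours, and at day 6 Ldha, Pgk1, Pfkp, Hk2 and Eno1 lie higher in orange and Slc2a1 and Hk1 lie higher in blue.

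The genes spanned a wide range of abundance, and the later steps of the pathway held most of it. On the log2 RPKM scale, which divides by exon length, Pkm led in every group, from 8.36 in siNcor1 at day 3 to 9.05 in siOct4 at day 6. Ldha, Aldoa and Gapdh followed in all 4 groups, at 7.85, 7.65 and 7.35 in siNcor1 at day 3. Their libraries did not overlap with each other in that group, whereas at day 6 in siNcor1 the ranges of Aldoa (7.77 to 7.97) and Ldha (7.67 to 7.76) lay edge to edge. Eno1 and then Pgk1 came next, at 6.68 and 5.60 in that group. The entry steps were the lowest: Slc2a1 stood at 4.04, Pfkp at 3.40 and Hk1 at 3.22 in siNcor1 at day 3, with Hk2 above them. Slc2a1 climbed from the eighth place to the sixth in siNcor1 at day 6, at 5.86, above Pgk1 at 5.78, and to the seventh in siOct4 at 5.10, where its libraries spread from 4.70 to 5.49 and overlapped with those of Hk2 (4.66 to 4.78). Pfkp and Hk1 stayed in the last places and changed order between groups. Summed over the 11 rows, the level was 4792 to 4810 CPM in siNcor1 and 4796 to 5234 CPM in siOct4 at day 3, and 5365 to 5793 CPM and 6689 to 7793 CPM at day 6.

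The knockdowns were compared first, siOct4 against siNcor1, to ask which glycolytic genes differed between cells given the siRNAs against Ncor1 and cells given those against Oct4. At day 6, 7 of the 11 rows passed the limma test (adjusted p under 0.05 over 13866 genes), 5 higher in siOct4 (Ldha, Pfkp, Pgk1, Eno1, Hk2) and 2 lower (Slc2a1, Hk1). Of all genes tested, 30.7% were called in this comparison, 12.1% higher and 18.6% lower. The median log2 difference of the 11 rows was 0.51 and that of all genes was -0.03. The 11 rows include the second Aldoa row, which stood at 0.91 on few reads and was not called. Of all calls 39.5% were higher, which fell to 27.5% with plain library totals, while 7 glycolytic rows were called on either scale. Without siNcor1 day 6 replicate 2 the count of glycolytic rows called was 4. At day 3 none of the 11 rows was called by limma, where 1.07% of all genes were (0.375% higher, 0.692% lower), and 1 (Hk1) had an unadjusted p under 0.05; limma with voom weights on the recovered reads also called 0.

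**Figure D2:**
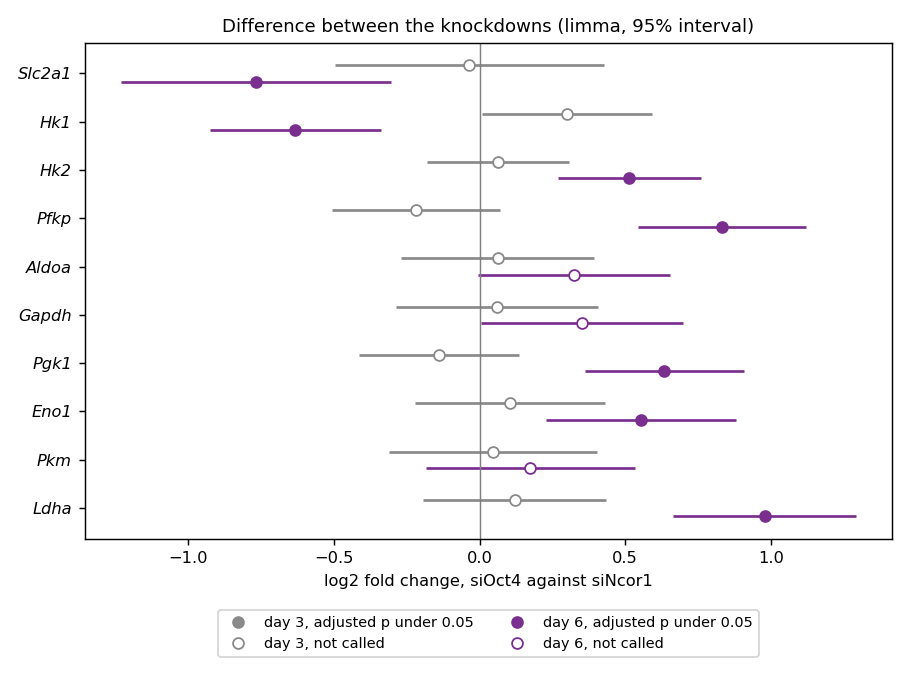
Log2 fold change between siOct4 and siNcor1 (x axis) for the 10 glycolytic genes (y axis) at day 3 (grey) and day 6 (purple), with 95% intervals from limma; filled points had an adjusted p under 0.05. Every day 3 point is open, and at day 6 Slc2a1 and Hk1 lie left of 0 at -0.77 and -0.63 while Ldha lies furthest right at 0.98.

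The days were then compared within each knockdown. From day 3 to day 6, 5 of the 11 rows changed in siNcor1 (3 higher, 2 lower; of all genes 34.8% were called, 13.8% higher and 20.9% lower) and 8 changed in siOct4 (6 higher, 2 lower; of all genes 52.7% were called, 22.2% higher and 30.5% lower). The second Aldoa row, with 2 to 31 reads in the siOct4 libraries, is 1 of the 6 higher in siOct4 and counts in the medians. The median change of the 11 rows was 0.18 in siNcor1 and 0.49 in siOct4, where the medians of all genes were -0.07 and -0.08. In siOct4, 42.1% of all calls were higher, against 52.5% when Gm26917 was left out of the library totals, which moved the median of all genes by 0.13. The siNcor1 count fell to 3 without siNcor1 day 3 replicate 2, or without either siNcor1 library of day 6, and the siOct4 count fell to 5 without siOct4 day 3 replicate 2. The change of the knockdown difference from day 3 to day 6, tested as an interaction, was called for 4 of the 11 rows (Pfkp, Ldha and Pgk1 higher, Hk1 lower), where 20.7% of all genes were called, 7.77% higher and 12.9% lower. That count was 2 without siNcor1 day 3 replicate 2 and also without siOct4 day 3 replicate 2. The 5 comparisons share libraries and are not independent of each other.

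**Figure D3:**
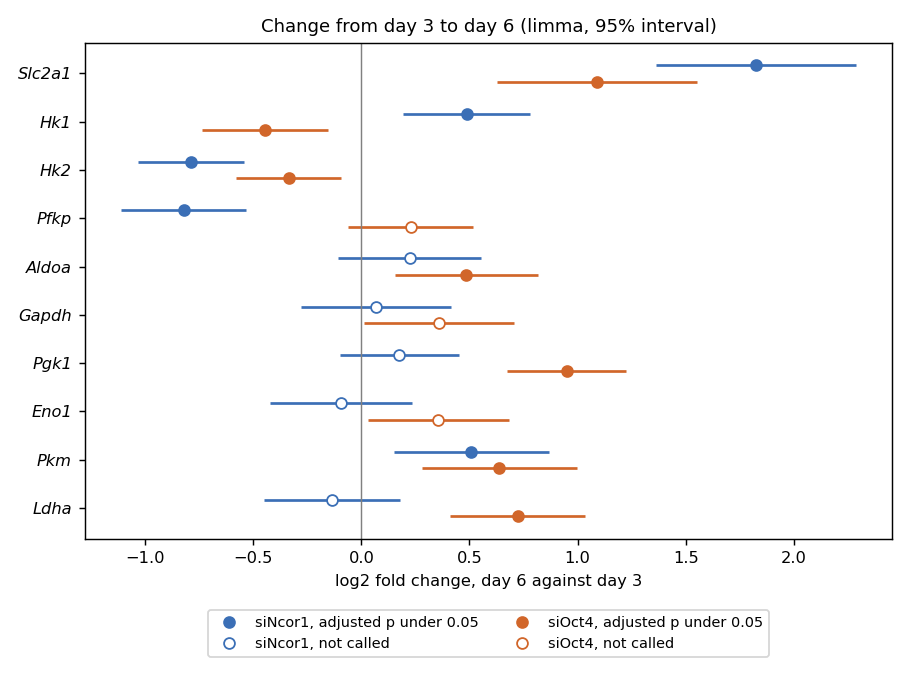
Log2 fold change from day 3 to day 6 (x axis) for the 10 glycolytic genes (y axis) in siNcor1 (blue) and siOct4 (orange), with 95% intervals from limma; filled points had an adjusted p under 0.05. Slc2a1 rose in both (1.82 and 1.09), Hk2 fell in both, Hk1 rose in siNcor1 and fell in siOct4, and Pgk1, Ldha and Aldoa are filled for siOct4 only.

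Glucose entry came first. Slc2a1 (chr4:119108711-119137983, plus strand) encodes GLUT1, the main basal glucose transporter of fibroblasts and many other cells. Its log2-cpm was 5.99 and 5.71 in the siNcor1 libraries of day 3 and 5.96 and 5.67 in siOct4. At day 6 it was 7.67 and 7.68 in siNcor1 and 7.30 and 6.51 in siOct4. All day 6 libraries lay above all day 3 libraries, and at day 6 both siNcor1 libraries lay above both siOct4 libraries, which themselves differed by 0.79. From day 3 to day 6 Slc2a1 rose 3.54-fold in siNcor1 (log2 1.82, SE 0.21, adjusted p = 1.1e-04) and 2.13-fold in siOct4 (log2 1.09, SE 0.21, adjusted p = 0.0011), and the rise in siOct4 was 0.69 without its replicate 1 of day 6. At day 6 it was 1.70-fold lower in siOct4 (log2 -0.77, SE 0.21, adjusted p = 0.0181, and 0.0713 without the trend of the variance). This call was lost without siNcor1 day 6 replicate 1 (adjusted p = 0.0689), without replicate 2 (0.0969) and without siOct4 day 6 replicate 2, where the difference shrank to -0.37 (adjusted p = 0.0797), and without siOct4 day 6 replicate 1 the difference was -1.16. At day 3 the knockdowns differed by -0.03 (95% interval -0.50 to 0.43), and the interaction was not called (-0.73, adjusted p = 0.103), though it was without siOct4 day 6 replicate 1 (-1.13, adjusted p = 0.0021).

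The hexokinases differed in opposite directions between the knockdowns at day 6. Hk1 (chr10:62268855-62379908, minus strand) and Hk2 (chr6:82725025-82774454, minus strand) both phosphorylate glucose; HK1 is the form found in most tissues and HK2 the inducible form of muscle, tumours and embryos. Hk1 stood at 6.40 and 6.22 log2-cpm in siNcor1 and 6.51 and 6.71 in siOct4 at day 3, and at 6.84 and 6.76 in siNcor1 and 6.30 and 6.03 in siOct4 at day 6. The siNcor1 libraries were the lower pair at day 3, where the difference of 0.30 was not called, and the higher pair at day 6. At day 6 Hk1 was 1.55-fold lower in siOct4 (log2 -0.63, SE 0.13, adjusted p = 0.0052), a call that held under all alternatives run. From day 3 it rose by 0.49 in siNcor1 (adjusted p = 0.0151), whereas in siOct4 it fell by 0.45 (adjusted p = 0.0149), and this opposite course was called as an interaction (-0.93, SE 0.19, adjusted p = 0.0064). The rise in siNcor1 was no longer called without siNcor1 day 3 replicate 2 (0.40) or without day 6 replicate 1 (0.45) or 2 (0.53), nor without the trend of the variance (adjusted p = 0.0517). The fall in siOct4 was not called without siOct4 day 3 replicate 2 (-0.35, adjusted p = 0.131) or day 6 replicate 2 (-0.31, 0.0742), nor under quantile normalization (-0.19, 0.307) or with totals without Gm26917 (-0.31, 0.0766).

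Hk2 showed the reverse order at day 6. Its log2-cpm was 7.54 and 7.60 in siNcor1 and 7.59 and 7.68 in siOct4 at day 3, and 6.81 and 6.76 in siNcor1 and 7.36 and 7.24 in siOct4 at day 6. The day 3 libraries overlapped, and by day 6 the siNcor1 pair had dropped well below the other 6 libraries. Hk2 fell by 0.79 in siNcor1 (SE 0.11, adjusted p = 4.1e-04), to 1.73-fold below its day 3 level, and was 1.43-fold higher in siOct4 than in siNcor1 at day 6 (log2 0.51, SE 0.11, adjusted p = 0.0059). The day 6 call was lost without siNcor1 day 6 replicate 2 (0.49, adjusted p = 0.0690). In siOct4 the fall of 0.34 passed the test (adjusted p = 0.0242). That call was lost without siOct4 day 3 replicate 1 (-0.38), day 3 replicate 2 (-0.29) or day 6 replicate 2 (-0.27). It was also lost under quantile normalization (-0.10, adjusted p = 0.493), with totals without Gm26917 (-0.20, 0.174) and with libraries centred on the median (-0.27, 0.0816). Without the trend of the variance its adjusted p was 0.0550, and with only the groups compared 0.0821. The interaction of Hk2 was 0.45 (adjusted p = 0.0631), and it was called under quantile normalization (0.50, 0.0478), with totals without Gm26917 (0.51, 0.0444) and without siOct4 day 6 replicate 2 (0.51, 0.0296). Per exon length, the reads of Hk2 over those of Hk1 stood at 3.15 and 3.74 in siNcor1 and 3.03 and 2.80 in siOct4 at day 3, and at 1.40 and 1.43 in siNcor1 against 2.99 and 3.30 in siOct4 at day 6. Only the siNcor1 libraries of day 6 stood apart in that ratio, which was computed after the values had been seen and was given no test.

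Pfkp (chr13:6579768-6648777, minus strand), the platelet-type form of phosphofructokinase, which catalyses the committed step of the pathway, had the next pattern. Its level is not that of all phosphofructokinase transcripts. Pfkp stood at 7.13 and 7.17 log2-cpm in siNcor1 and 6.84 and 7.02 in siOct4 at day 3, and at 6.47 and 6.18 in siNcor1 and 7.24 and 7.08 in siOct4 at day 6. As with Hk2, the siNcor1 libraries of day 6 were the lowest of the 8. At day 3 the siNcor1 pair was the higher one, a difference that was not called. At day 6 Pfkp was 1.78-fold higher in siOct4 (log2 0.83, SE 0.13, adjusted p = 0.0013), a call that held whichever library was left out. It fell 1.77-fold in siNcor1 (log2 -0.82, SE 0.13, adjusted p = 8.5e-04), and the change in siOct4 was 0.23 (95% interval -0.06 to 0.52, adjusted p = 0.167). The change in siOct4 was called under quantile normalization (0.47, adjusted p = 0.0125) and with totals without Gm26917 (0.36, 0.0363). Its interaction of 1.05 (SE 0.19, adjusted p = 0.0032) was the largest in size of the 4 called, and it too was called whichever library was left out.

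Aldoa (chr7:126795234-126800751, minus strand) encodes aldolase A, which splits fructose 1,6-bisphosphate. Gapdh (chr6:125161715-125166467, minus strand) encodes the enzyme that makes the NADH of the pathway. Neither gene had a called difference between the knockdowns on either day. Aldoa stood at 9.21 and 9.17 log2-cpm in siNcor1 and 9.30 and 9.21 in siOct4 at day 3, and at 9.51 and 9.31 in siNcor1 and 9.92 and 9.56 in siOct4 at day 6. Gapdh stood at 9.48 and 9.31 in siNcor1 and 9.54 and 9.38 in siOct4 at day 3, and at 9.58 and 9.34 in siNcor1 and 9.98 and 9.65 in siOct4 at day 6. For both genes siOct4 day 6 replicate 1 was the highest library. The day 6 differences were 0.32 for Aldoa (95% interval -0.01 to 0.66, adjusted p = 0.125) and 0.35 for Gapdh (95% interval 0.01 to 0.70, adjusted p = 0.113), and neither was called. Without siOct4 day 6 replicate 2 both were called, at 0.51 (adjusted p = 0.0216) and 0.52 (adjusted p = 0.0287). Aldoa rose by 0.49 from day 3 to day 6 in siOct4 (SE 0.15, adjusted p = 0.0178). This call was lost without siOct4 day 3 replicate 2 (0.44) or day 6 replicate 1 (0.30) and with only the groups compared (adjusted p = 0.0682). The change of Aldoa in siNcor1 was 0.22 (95% interval -0.11 to 0.55). Gapdh, often used as a reference gene, differed between days by 0.07 in siNcor1 (adjusted p = 0.775) and in siOct4 by 0.36 (95% interval 0.01 to 0.70, adjusted p = 0.0768). In siOct4 that value passed the test at 0.43 with libraries centred on their median, at 0.49 with totals without Gm26917 and at 0.53 without siOct4 day 6 replicate 2. The second Aldoa row (ENSMUSG00000114515, chr7:126800790-126809108) is a gene model just upstream on the same strand, with 8 and 13 reads in siNcor1 and 8 and 2 in siOct4 at day 3, and 17 and 12 in siNcor1 and 31 and 20 in siOct4 at day 6. It rose by 2.28 in siOct4 (adjusted p = 0.0014), by 1.29 with a pseudocount of 1, on counts too low to read a size from.

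Pgk1 (chrX:106187100-106203699, plus strand) encodes phosphoglycerate kinase, the ATP-making step after GAPDH. It stood at 6.76 and 6.78 log2-cpm in siNcor1 and 6.77 and 6.50 in siOct4 at day 3, and at 6.92 and 6.98 in siNcor1 and 7.50 and 7.66 in siOct4 at day 6. The siOct4 libraries of day 6 stood apart from the other 6. Pgk1 rose 1.93-fold in siOct4 (log2 0.95, SE 0.13, adjusted p = 7.9e-05) and was 1.55-fold higher there than in siNcor1 at day 6 (log2 0.63, SE 0.13, adjusted p = 0.0037). In siNcor1 it changed by 0.18 (95% interval -0.10 to 0.45, adjusted p = 0.304), or by 0.38 under quantile normalization, where it was called (adjusted p = 0.0277). The interaction was 0.77 (SE 0.18, adjusted p = 0.0115), lost without siNcor1 day 3 replicate 2 (0.76, 0.0586) or siOct4 day 3 replicate 2 (0.64, 0.0617).

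Eno1 (chr4:150236721-150248879, plus strand), the enolase of most cells, had a weaker form of the same order. It stood at 9.09 and 9.12 log2-cpm in siNcor1 and 9.30 and 9.12 in siOct4 at day 3, and at 9.12 and 8.90 in siNcor1 and 9.73 and 9.40 in siOct4 at day 6. Both siOct4 libraries of day 6 lay above the other 6. The day 6 difference was 0.55 (SE 0.15, adjusted p = 0.0165), or 1.47-fold. The call was lost with only the groups compared (adjusted p = 0.0523), without siNcor1 day 6 replicate 2 (0.45) or without siOct4 day 6 replicate 1 (0.39). From day 3 to day 6 Eno1 differed by -0.09 in siNcor1 (adjusted p = 0.660) and in siOct4 by 0.36 (adjusted p = 0.0641; called at 0.43 with libraries centred on the median, at 0.40 under quantile normalization, at 0.49 with totals without Gm26917, and at 0.52 without siOct4 day 6 replicate 2). The interaction of Eno1 was 0.45 (adjusted p = 0.151), and without siOct4 day 6 replicate 2 it was called (0.62, 0.0364).

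Pkm (chr9:59656368-59679375, plus strand) encodes the pyruvate kinases M1 and M2, the last ATP-making step, and its splice forms are summed in the table. It stood at 10.68 and 10.69 log2-cpm in siNcor1 and 10.80 and 10.67 in siOct4 at day 3, and at 11.22 and 11.17 in siNcor1 and 11.46 and 11.28 in siOct4 at day 6. All 4 day 6 libraries lay above all day 3 libraries. It rose by 0.51 in siNcor1 (SE 0.16, adjusted p = 0.0312, and 0.0529 with no filter). The rise in siOct4 was 0.64 (SE 0.16, adjusted p = 0.0064, and 0.0565 with only the groups compared). The rise in siNcor1 was no longer called when any of the 4 siNcor1 libraries was left out, with adjusted p of 0.120 to 0.162 and a change of 0.48 to 0.53. The knockdowns differed by 0.17 at day 6 (95% interval -0.18 to 0.53, adjusted p = 0.447), and the interaction was 0.13 (95% interval -0.38 to 0.64).

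Ldha (chr7:46841475-46855627, plus strand) encodes the lactate dehydrogenase subunit that regenerates NAD by making lactate, and it differed the most between the knockdowns. It stood at 9.47 and 9.68 log2-cpm in siNcor1 and 9.79 and 9.61 in siOct4 at day 3, and at 9.48 and 9.40 in siNcor1 and 10.47 and 10.37 in siOct4 at day 6. The siOct4 libraries of day 6 lay clear of the other 6, which spanned 9.40 to 9.79. At day 6 Ldha was 1.97-fold higher in siOct4 (log2 0.98, SE 0.14, adjusted p = 8.4e-04), a call that held whichever library was left out. It rose 1.65-fold from day 3 in siOct4 (log2 0.72, SE 0.14, adjusted p = 0.0013) and changed by -0.14 in siNcor1 (95% interval -0.45 to 0.18, adjusted p = 0.496). The interaction of 0.86 (SE 0.20, adjusted p = 0.0133) was lost without siNcor1 day 3 replicate 2 (0.75, 0.0838), siOct4 day 3 replicate 2 (0.77, 0.0568) or siNcor1 day 6 replicate 2 (0.82, 0.0744). Per exon length, Ldha reads stood at 10.5 and 14.0 times those of Ldhb, the heart-type subunit, in siNcor1 at day 3, 8.69 and 8.06 times in siNcor1 at day 6, 11.9 and 11.8 times in siOct4 at day 3, and 25.6 and 20.6 times in siOct4 at day 6. That pair was chosen after its values had been seen, and the ratio was not tested.

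The genes most like the members in profile were found by the root mean square difference of log2 values, each centred on its mean over the 8 libraries. For Slc2a1 the nearest genes outside the members were Tmem184a (0.14), Ldhd (0.16) and Reep6 (0.17), while the nearest member was Pkm at 0.58. For Ldha the nearest included Hgh1 (0.08) and Psmg3 (0.09), and the nearest member was Eno1 at 0.19. For the mean of the 11 rows they were Polr2e (0.04), Rbck1 (0.04) and Tcf3 (0.05), beside Aldoa at 0.05, the member closest to that mean. Slc2a1, at 0.68, and the second Aldoa row, at 0.69, were the members furthest from that mean. The order rests on 8 libraries in 4 groups and has no test.

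The rest of glucose metabolism was taken from 8 lists. At day 6 the direction was mixed in nearly every list, and of all genes 12.1% were called higher in siOct4 and 18.6% lower. Of 14 tested other glycolytic enzymes, 3 were higher and 2 lower in siOct4 (median 0.07); Tpi1, the triose phosphate isomerase, was higher by 0.56 (adjusted p = 0.0093) and Eno2, the neuronal enolase, lower by 0.89 (log2 -0.89, adjusted p = 0.0063). Both calls were lost without siNcor1 day 6 replicate 2, at 0.50 (adjusted p = 0.0977) and -0.77 (adjusted p = 0.0736). Of 11 other transporters of glucose and monocarboxylates, 1 was higher and 4 lower (median -0.08). Slc2a3 (GLUT3), the high-affinity transporter of neurons and embryos, stood at 7.99 and 7.95 log2-cpm in siNcor1 and 5.59 and 5.79 in siOct4 at day 6, and was 4.86-fold lower in siOct4 (log2 -2.28, adjusted p = 7.7e-06). Slc16a3 (MCT4), which exports lactate, stood at 4.13 and 4.36 in siNcor1 and 6.74 and 5.55 in siOct4 and was 3.74-fold higher (log2 1.90, adjusted p = 0.0013). Slc2a1 and Slc2a3 were thus both lower in siOct4 at day 6, and Slc16a3 was higher there, as Ldha was. Slc2a10 was lower (log2 -1.40, adjusted p = 0.0059), lost without siNcor1 day 6 replicate 1 (-1.09, 0.0571).

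**Figure D4:**
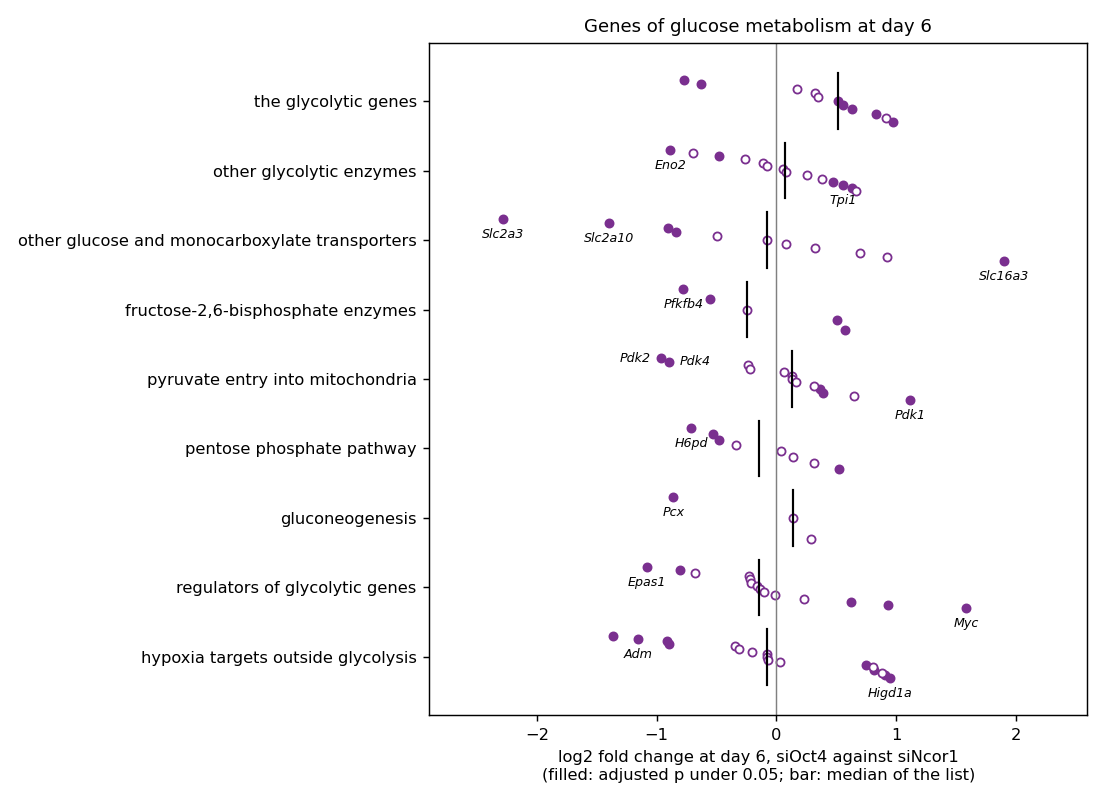
Log2 fold change of siOct4 against siNcor1 at day 6 (x axis) for each of the 11 glycolytic rows and each tested gene of 8 other lists of glucose metabolism (y axis); filled points had an adjusted p under 0.05, bars mark the median of a list, and labels name called genes given in the text. The 11 glycolytic rows, the second Aldoa row included, have the highest median, at 0.51, and Slc2a3 (-2.28) and Slc16a3 (1.90) lie furthest out.

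Of 5 enzymes that set fructose 2,6-bisphosphate, the activator of phosphofructokinase, 2 were higher and 2 lower (median -0.24); Pfkfb4 was lower (log2 -0.78, adjusted p = 0.0112), lost without siNcor1 day 6 replicate 1 (-0.67, 0.0841). Of 13 genes of pyruvate entry into mitochondria, 3 were higher and 2 lower (median 0.13). Pdk1, a kinase that shuts pyruvate dehydrogenase, stood at 5.56 and 5.53 log2-cpm in siNcor1 and 6.75 and 6.57 in siOct4 and was 2.17-fold higher (log2 1.12, adjusted p = 4.6e-04). Other kinases of pyruvate dehydrogenase went the other way, Pdk2 at -0.96 (adjusted p = 0.0209) and Pdk4 at -0.90 (adjusted p = 0.0219). The Pdk2 call was lost without siNcor1 day 6 replicate 1 (-0.76, 0.140) or 2 (-1.16, 0.0534) or siOct4 day 6 replicate 2 (-0.66, 0.0915), and that of Pdk4 without siNcor1 day 6 replicate 1 (-0.80, 0.111) or 2 (adjusted p = 0.0747) or siOct4 day 6 replicate 1 (-0.84, 0.0525). Of 8 pentose phosphate genes, 1 was higher and 3 lower (median -0.15), with H6pd at -0.71 (adjusted p = 0.0042). Of 3 tested gluconeogenic genes, none was higher and 1 lower: Pcx, the pyruvate carboxylase, at -0.86 (adjusted p = 7.5e-04). Pathway regulators split in the same way. Of 14, 3 were higher and 2 lower (median -0.15); Myc was higher by 1.59 (adjusted p = 2.0e-04), with reads of the cassette included, and Epas1 (HIF2A) lower (log2 -1.08, adjusted p = 6.7e-04). Of 17 hypoxia targets outside glycolysis, 4 were higher and 4 lower (median -0.08), with Higd1a at 0.95 (adjusted p = 0.0010) and Adm at -1.16 (adjusted p = 3.6e-04).

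At day 3 few genes of these lists were called, among them Slc2a3 (log2 -0.77, adjusted p = 0.0230) and Pdk1 (-0.67, 0.0469), lower in siOct4, and Lox (1.02, 0.0049), higher. Leaving out either siNcor1 library of day 3 ended these calls: the values were -0.64, -0.73 and 1.06 without replicate 1 and -0.90, -0.62 and 0.98 without replicate 2, in that order. Leaving out either siOct4 library of day 3 ended those of Slc2a3 and Pdk1 too (adjusted p = 0.0594 to 0.421), as did leaving out either siNcor1 library of day 6 (adjusted p = 0.0592 to 0.0957). From day 3 to day 6 the other glycolytic enzymes had 5 calls in siNcor1 and 3 in siOct4 of 14, all higher. Over all genes, 13.8% were called higher and 20.9% lower in siNcor1, and 22.2% and 30.5% in siOct4. The transporters had 2 higher and 1 lower in siNcor1 and 4 higher and 4 lower in siOct4 of 11. Slc2a3 rose 16.7-fold in siNcor1 (log2 4.06) and 5.84-fold in siOct4 (log2 2.55), and Slc16a3 9.25-fold (log2 3.21) and 34.4-fold (log2 5.10), each with an adjusted p of 3.3e-05 or below. Slc2a3 reads per exon length stood at 0.603 and 0.581 of those of Slc2a1 in siNcor1 at day 6, and at 0.147 and 0.292 in siOct4. At day 3 they stood at 0.124 and 0.125 in siNcor1 and at 0.0691 and 0.0807 in siOct4. This ratio was not tested either. Tpi1 rose by 1.01 (adjusted p = 8.0e-05) in siOct4. Aldoc, the brain aldolase, rose by 3.14 in siOct4 (adjusted p = 6.3e-05), from 8 and 17 reads at day 3. It was also called higher in siNcor1, by 1.85. Eno2 rose by 1.13 in siNcor1 (adjusted p = 0.0013).

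The direction of calls between days varied among the remaining lists. Over all genes, 13.8% were called higher and 20.9% lower in siNcor1, and 22.2% and 30.5% in siOct4. For the interaction these shares were 7.77% and 12.9%. The fructose 2,6-bisphosphate enzymes had no call in siNcor1 and 1 higher and 1 lower in siOct4 (of 5; limma, with 0 at an unadjusted p under 0.05 in siNcor1). Pyruvate entry genes had 4 lower and none higher in siNcor1 and 4 in each direction in siOct4 (of 13), where Pdk1 rose 3.40-fold (log2 1.76, adjusted p = 2.6e-06). Pentose phosphate genes had 2 higher and 1 lower in siNcor1 and 2 of each in siOct4 (of 8). Gluconeogenic genes had 1 higher in siNcor1 and 2 higher in siOct4 (of 3), with Pcx higher by 1.16 in siNcor1 (adjusted p = 7.0e-05). Pcx was also called higher in siOct4, where its mean log2-cpm rose from 5.42 to 5.85. Regulators had 5 of each in siNcor1 and 3 higher and 5 lower in siOct4 (of 14). Hif1a, the oxygen-regulated subunit of HIF1, fell by 1.08 in siOct4 (adjusted p = 5.9e-05). In siNcor1 the mean log2-cpm of Hif1a went from 7.02 to 6.64. Hypoxia targets had 6 higher and 3 lower in siNcor1 and 8 higher and 6 lower in siOct4 (of 17), Bnip3 among the higher in siNcor1 (1.43, adjusted p = 0.0014). In siOct4 the mean log2-cpm of Bnip3 rose as well, from 1.89 to 4.51. The interaction was called higher and lower for 1 and 1 of the glycolytic enzymes, 1 and 4 of the transporters, 1 and 1 of the fructose 2,6-bisphosphate enzymes, 1 and 1 of the pyruvate entry genes, 0 and 2 of the pentose phosphate genes, 1 and 1 of the gluconeogenic genes, 1 and 2 of the regulators and 4 and 5 of the hypoxia targets.

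Several neighbours and copies limit single rows. Antisense genes overlap Slc2a1, Hk1, Hk2, Pfkp, Aldoa and Gapdh, and Gm49759 overlaps Pkm on its own strand; whether reads were counted by strand is not given in the sources used here. Copies were sought only by names built on that of a member, so copies under other names were not looked for. Of those found, Eno1b held 20 to 59 reads in a library, against 4396 or more for Eno1. The pseudogene Ldha-ps2 held 0 to 7 reads, against 6164 or more for Ldha. Named pseudogenes of Aldoa, Gapdh and Pgk1 and another of Ldha had no row of values. How reads that match several places were counted is not given in the sources used here.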

How the data were processed

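RNA-seq values of 8 libraries were read from the deposited table of log2-cpm per gene. Per the labels, the authors used STAR 2.5.2b on mm10 (GRCm38) and edgeR 3.20.9; the counting tool is not given in the sources used here. The lowest value marks 0 reads, and after subtracting it on the linear scale 100% of the values were whole reads within 0.1 read. From these reads came depth, CPM and log2 RPKM (union exon length, GENCODE M21). Genes averaging 1 CPM or more (13866) were fitted on their log2 values with limma 3.58.1 in R 4.3.3 (lmFit, eBayes with trend), 4 groups together, Benjamini-Hochberg adjustment over all genes tested, threshold 0.05; fold changes include the small prior count of the authors. The fit was tested on simulated data. Alternatives were 4 other scalings, no trend, voom on recovered reads, other filters and pseudocounts, a replicate block, fits of the compared groups only, and leaving out each library. Named genes are all 10 members, the siRNA targets, up to 3 of the largest called changes of each list at day 6 or between days, and the 3 nearest profiles. Members and lists were chosen with earlier results of these data known. Limma p-values rest on 2 replicates a group. Some genes that these rules select are not reported here.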

Additional observations from a re-analysis of the deposited data

Results flagged for a closer look

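In 4 of the 10 genes the change from day 3 to day 6 differed between siNcor1 and siOct4 by the interaction term of the limma fit, which called 20.7% of all genes, 7.77% higher and 12.9% lower. The difference of the changes on the log2 scale, siOct4 minus siNcor1, was 1.05 for Pfkp (-0.82 in siNcor1 and 0.23 in siOct4), 0.86 for Ldha (-0.14 and 0.72), 0.77 for Pgk1 (0.18 and 0.95) and -0.93 for Hk1 (0.49 and -0.45). Adjusted p ranged from 0.0032 to 0.0133 in the fit across all genes. In Pfkp and Hk1 every day 6 library of siNcor1 lay on the opposite side of its day 3 libraries from those of siOct4, and for Ldha and Pgk1 the change between days passed the threshold in siOct4 and not in siNcor1. The calls of Ldha and Pgk1 were lost when some single libraries were left out, and those of Pfkp and Hk1 were not.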

How the results depend on the processing

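The calls of Ldha, Pfkp, Pgk1 and Hk1 at day 6 and of Slc2a1 between days in both knockdowns held under all alternatives run. So did those of Hk2 and Pfkp between days in siNcor1, and of Ldha and Pgk1 between days in siOct4. The interaction calls of Pfkp and Hk1 held as well. With 1 library left out in turn, the number of glycolytic rows called ranged from 4 to 8 between the knockdowns at day 6 (7 in the full fit), from 3 to 5 between days in siNcor1 (5), from 5 to 8 between days in siOct4 (8) and from 2 to 6 for the interaction (4), and stayed at 0 at day 3. With only the groups compared in the fit, 5 rows were called between days in siOct4. The replicate number as a block gave 0 and 8 rows between the knockdowns at day 3 and day 6, 5 and 10 between days in siNcor1 and siOct4 and 5 for the interaction; deviations of same-numbered libraries correlated at -0.04 to 0.28, and the numbers were not taken as pairs. Small differences changed sign: at day 3 Aldoa (-0.0049), Gapdh (-0.026) and Pkm (-0.060) under quantile normalization, and, leaving out a library, Gapdh (-0.027 to 0.15), Pkm (-0.020 to 0.11) and Slc2a1 (-0.18 to 0.11); in siNcor1 between days Eno1 (-0.20 to 0.013) and Gapdh (-0.053 to 0.19); and at day 6 Ncor1 (0.0062 under quantile normalization and -0.14 to 0.054 leaving out a library). Of all genes, 148 were called at day 3, 43 without the trend, 81 at a mean of at least 10 CPM and 3 to 375 with a library left out; the other comparisons fell from 4251 to as few as 1398 (day 6), from 4819 to 2360 (siNcor1) and from 2867 to 1009 (interaction). With 2 replicates a group, the lone library left in a group is assumed to vary like the others.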
